A study of Drosophila melanogaster with 20 samples.

Results

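The mitochondrial ribosomal protein genes of Drosophila, whose symbols begin with mRpL (large subunit) or mRpS (small subunit), were followed in whole embryos with raised or lowered Wnt4, Otk-1 and Otk-2. Protein-coding genes with such a symbol and a mean expected count of at least 10 were taken, without regard to how they changed. All 72 such genes in the files passed, 47 of the large and 25 of the small subunit, among 11154 genes tested and 17714 in the files. The reference annotation names 73, and mRpS5 is not analysed here.

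RNA was measured in 10 groups of 2 libraries each (n = 2 throughout). Overexpression groups were UAS-otk1 alone, UAS-wnt4 alone and both transgenes together, written UAS-otk1 + UAS-wnt4. Knockdown groups were otk1 RNAi alone, otk2 RNAi alone and wnt4 RNAi alone, and the 3 pairs otk1 RNAi + wnt4 RNAi, otk2 RNAi + wnt4 RNAi and otk1 RNAi + otk2 RNAi. WT was the control. Transgenes were driven by maternal and daughterless GAL4 together (broad drivers of the maternal germline and of the embryo). Whether WT carried the drivers is not given here by labels or methods. Females laid over 24 h at 25 °C, so each library pooled embryos of mixed stages. The labels do not tie paired libraries to separate collections of embryos, so p-values reflect only how far these libraries spread, which may be technical. In whole embryos, fewer cells of a type and less RNA per cell cannot be told apart.

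Mitochondria carry their own small genome, which encodes a few core subunits of oxidative phosphorylation, ribosomal RNAs and tRNAs. A dedicated ribosome translates these few messages. All of its proteins are encoded in the nucleus, made in the cytosol and imported. Some are relatives of bacterial ribosomal proteins, and others are found only in mitochondrial ribosomes. Early embryos inherit their mitochondria from the egg, so that this machinery is both loaded by the mother and made by the embryo.

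Total counts per library were between 33641557 and 41753919. The RNAi and overexpression labels held for otk (Otk-1), at 56.0 and 46.0 CPM (reads scaled to a common library size) in otk1 RNAi and 2194 and 1984 CPM in UAS-otk1, against 199 and 178 CPM in WT. They held for otk2, at 28.4 and 23.6 CPM in otk2 RNAi against 67.5 and 61.6 CPM in WT. Wnt4 stood at 158.9 and 143.2 CPM in the libraries labelled wnt4 RNAi, against 126.2 and 106.8 CPM in WT, so its level does not match that label, and wnt4 RNAi is used in all that follows as the name of the label and not as a measured loss of Wnt4. Late tissue genes (cuticle, muscle, neuron) were set against egg and early embryo genes in each library as a difference of mean log2 CPM, called the stage score. It was -3.38 to -0.96 in the 18 libraries outside WT, against 0.17 and -1.05 in WT. Both WT libraries scored above every RNAi library, so stage and RNAi cannot be told apart in those comparisons with WT.

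Levels within the family, per length, spanned a 5.89-fold range. Mean TPM, a level scaled to gene length, had a median of 64.7 over the 72 members, and 54 of them lay between 40 and 100. The medians were 63.3 TPM for the large and 70.5 TPM for the small subunit. These levels come from the TPM that the authors computed with effective gene lengths.

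**Figure D1:**
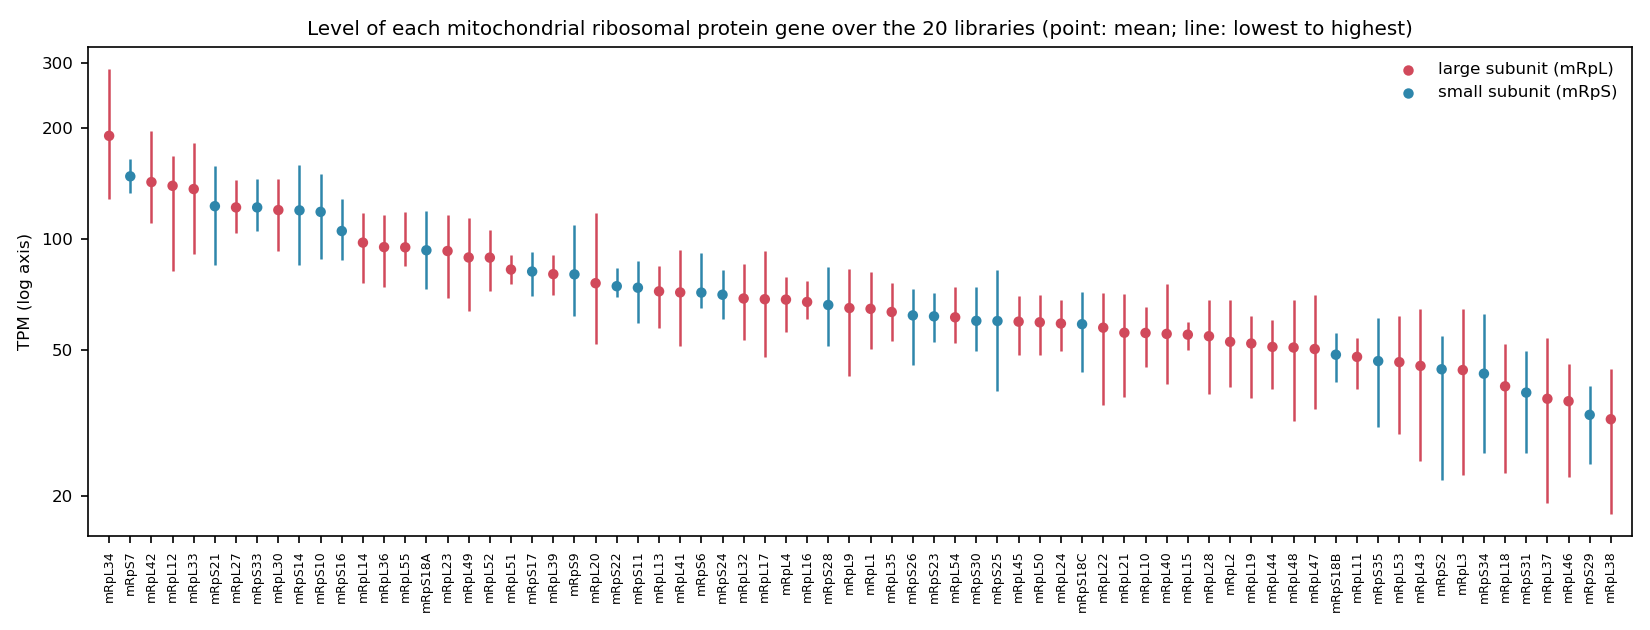
TPM of each of the 72 members on a log axis, ordered by mean, with points for the mean of the 20 libraries and lines from the lowest to the highest library. mRpL34 stands at the top with a mean of 190.6 TPM and mRpL38 at the bottom with 32.4 TPM, and members of both subunits are spread along the whole order.

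mRpL34, a very short protein of the large subunit, had the highest mean, 190.6 TPM, with a lowest library of 128.4 TPM and a highest of 289.1 TPM. Its effective length was only 79.2 bases, so this level is uncertain. mRpS7, which belongs to the head of the small subunit, followed at 147.9 ± 8.0 TPM (SD over 20 libraries). mRpL42, found only in mitochondrial ribosomes, averaged 142.7 ± 22.9 TPM. The ranges of these 3 genes over libraries overlapped.

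At the other end, mRpL38 averaged 32.4 ± 7.0 TPM, mRpS29 33.3 ± 4.4 TPM and mRpL46 36.2 ± 6.3 TPM. mRpS29 is the relative of human DAP3, a GTP-binding protein of the small subunit, and mRpL38 and mRpL46 have no counterpart among bacterial ribosomal proteins. The library ranges overlapped here too.

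The spread of the members between libraries was small. The median SD of log2 CPM over the 20 libraries was 0.21 for the members, against 0.34 for all genes tested and 0.28 for the 4572 genes in the same range of counts. The largest SDs were those of mRpL33 (0.42), mRpL34 (0.38) and mRpL42 (0.35), all of short effective length, and the smallest those of mRpL44 (0.09), mRpL28 (0.10) and mRpS30 (0.11). mRpL44, a large subunit protein related to RNase III, stayed between 40.4 and 50.5 CPM in every library. mRpL33 ranged from 7.78 CPM in a UAS-otk1 library to 25.9 CPM in a library of otk1 RNAi + wnt4 RNAi.

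Of the 72 members, 43 overlap the span of another annotated gene, 40 of them only on the other strand. The strand setting of the counting is not stated in the labels or methods. Reads of such genes and their partners cannot be told apart in the shared bases. All exonic bases of mRpL53 are shared with AGO1 or CG33155, and 55.3% of those of mRpS24 with TBC1d7, so both are uncertain. The share is 48% for mRpS21, 35.8% for mRpS14 and 35.2% for mRpL13, so these are uncertain in part. For mRpS14 and mRpL13 a partner lies on the same strand. It is 25.1% for mRpS9, 23.6% for mRpL17 and 20.8% for mRpL48, and 0% for mRpS10, mRpL37 and mRpL38.

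Across the 10 groups, 34 of the 72 members differed (edgeR's quasi-likelihood test, Benjamini-Hochberg adjusted p under 0.1), 19 of 47 in the large and 15 of 25 in the small subunit. Over all genes tested, 64.1% did. In 18 pairwise comparisons, 56 members were called at least once (83.1% of all genes tested were) and 16 in none, among them mRpL28, mRpL19 and mRpL55. The summed level of the family was 2945 and 3295 CPM in otk1 RNAi + wnt4 RNAi, and between 2459 and 3068 CPM in the 16 libraries outside that group and WT, against 2871 and 2510 CPM in WT. The WT libraries differed from each other, with 64 of 72 members higher in replicate 1 and a median difference of 0.25 (log2), while the largest median of a group against WT was 0.20.

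The direction of the sum depended on the scaling. As a share of the tested counts, members held 0.272 and 0.272% in otk1 RNAi + wnt4 RNAi, against 0.310 and 0.261% in WT. As summed TPM they held 4974 and 4758 in that group, against 6004 and 5270 in WT. The scaling factor of its replicate 2 was 0.825, the lowest of all libraries, and the summed CPM of the cytosolic ribosomal protein genes was 191273 there, against 122006 to 164714 in the other 19 libraries.

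**Figure D2:**
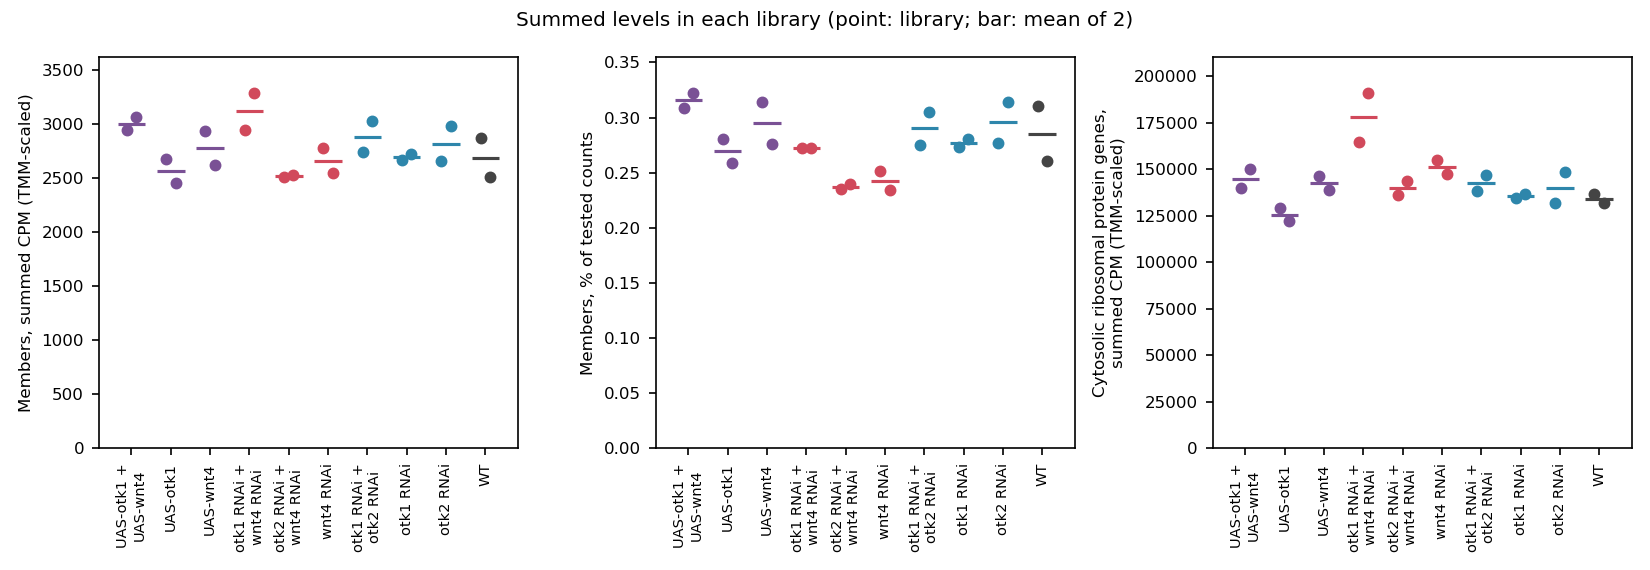
Summed CPM of the 72 members, their percent of the tested counts and the summed CPM of the 86 cytosolic ribosomal protein genes, with a point for each library and a bar for the mean of 2. Replicate 2 of otk1 RNAi + wnt4 RNAi is highest in both CPM panels but has only 0.272% of counts in the second.

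In the overexpression groups and in otk2 RNAi, almost no member passed the test. With edgeR, 0 of 72 members changed in UAS-wnt4 (background of all genes tested, 0.61%), 0 in UAS-otk1 (2.84%) and 0 in otk2 RNAi (1.78%), and 1, a rise, in UAS-otk1 + UAS-wnt4 (4.82%, 1.35% higher and 3.47% lower). At an unadjusted p under 0.05 there were 2 higher and 1 lower in UAS-wnt4 (5.58% of all genes tested in either direction), 1 higher and 7 lower in UAS-otk1 (25.7%) and 2 higher and 0 lower in otk2 RNAi (18.4%). DESeq2 called 0 members in UAS-wnt4 (0.986% of all genes tested), 1 in UAS-otk1 (12.1%) and 0 in otk2 RNAi (5.68%). Medians of the members' log2 fold changes were 0.04 in UAS-wnt4, -0.07 in UAS-otk1 and 0.06 in otk2 RNAi, against 0.00, -0.04 and 0.00 over all genes. In UAS-otk1 + UAS-wnt4 the median was 0.17, against 0.02 over all genes, with 59 of 72 members above 0. Fold changes of the members in that comparison were related to effective length with a Spearman rho of -0.49 (n = 72 genes, which are not replicates). Members are short, with a median effective length of 489.1 bases, against 1586.4 over all genes tested.

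The 1 call was mRpL53, a large subunit protein of mitochondria only, at 34.0 and 37.5 CPM in UAS-otk1 + UAS-wnt4, against 25.0 and 20.1 CPM in WT. Its log2 fold change was 0.66 ± 0.18 (standard error, SE; edgeR adjusted p = 0.0841), and it shares all exonic bases with other genes. AGO1, on those bases, changed by -0.13 ± 0.12 and CG33155 by 0.25 ± 0.20, and neither passed. The call was lost without any 1 of the 4 libraries compared, with edgeR adjusted p of 0.134 to 0.439. Without WT replicate 2, edgeR called members in UAS-otk1, most of them lower, and in otk2 RNAi, all lower. Shares of all genes called in that fit are not given, so these calls cannot be read as particular to the members.

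The libraries labelled wnt4 RNAi split the family. Of the 72 members, 7 were higher and 16 lower than in WT, where 59.2% of all genes tested were called (29.7% higher, 29.5% lower). That is 31.9% of the members, and the difference from all genes was not tested. The median log2 fold change of the members was -0.08, against -0.03 over all genes. Without WT replicate 1, 6 were higher and 8 lower. When the stage score was added to the model, 0 were called by edgeR. Both WT scores lay above every RNAi score, so that model cannot separate stage from RNAi. Shares of all genes called are not given for fits with the stage score, without a library or with the trend of gene length removed. Such counts, here and below, cannot be read as particular to the members.

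Small subunit proteins led the rises. mRpS9, the relative of the bacterial protein that reaches towards the tRNA in the P site, was at 103.0 and 119.4 CPM in the libraries labelled wnt4 RNAi, against 62.3 and 74.3 CPM in WT. Its log2 fold change was 0.70 ± 0.12 (edgeR adjusted p = 0.00054). mRpS10, in the head of the small subunit, was at 73.4 and 70.7 CPM, against 46.7 and 51.9 CPM in WT, a log2 fold change of 0.55 ± 0.10 (edgeR adjusted p = 0.00106). Neither gene overlapped between the groups.

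Next came mRpL1, whose bacterial relative forms the mobile stalk beside the tRNA exit. It had 77.2 and 82.9 CPM in the libraries labelled wnt4 RNAi, against 49.3 and 65.8 CPM in WT, a log2 fold change of 0.48 ± 0.13. In TPM its libraries overlapped, at 68.8 and 81.4, against 53.5 and 73.4 in WT. The other 4 that rose were mRpL4, mRpL45, mRpL50 and mRpS7, by 0.29 to 0.45 on the log2 scale. In TPM the libraries of mRpL45 and mRpS7 overlapped with WT too, and those of mRpL4 and mRpL50 did not. mRpL4 is the relative of a bacterial protein that lines the exit tunnel. It shares 7.2% of its exonic bases with CG4278, which rose by 0.69 ± 0.11, and mRpL50 shares 8.1% with Neos, which rose by 1.12 ± 0.21. Both partners passed (edgeR adjusted p = 0.000444 and 0.00103), and their part in the rises of mRpL4 and mRpL50 was not tested. Of the 23 members called here, 14 have a tested overlapping gene. It was called in the same direction for 3 of them and in the opposite direction for 6, and was not called for 5.

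The falls were larger in number. mRpS25, a mitochondrial protein of the small subunit, was at 19.2 and 15.9 CPM in the libraries labelled wnt4 RNAi, against 30.8 and 24.2 CPM in WT, a log2 fold change of -0.65 ± 0.15. mRpL37, a mitochondrial protein of the large subunit, was at 33.0 and 33.7 CPM, against 56.7 and 45.1 CPM in WT, a log2 fold change of -0.61 ± 0.12. mRpL18, whose bacterial relative binds 5S rRNA, was at 13.4 and 15.7 CPM, against 22.9 and 20.8 CPM in WT, a log2 fold change of -0.58 ± 0.13. In all 3 genes the libraries of the 2 groups were apart, with the wider gap between libraries in WT for mRpL37.

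Among the members that fell were mRpL38 (-0.57), mRpS34 (-0.56), mRpL3 (-0.55), mRpS31 (-0.55), mRpS35 (-0.51), mRpL9 (-0.50) and mRpL48 (-0.47). Of the 29 members with no bacterial counterpart by their number, 2 rose and 10 fell (median log2 fold change -0.22). Of the 43 with a bacterial number (mRpL47 and mRpS24, named otherwise in bacteria, included), 5 rose and 6 fell (median -0.05). By subunit, 4 rose and 9 fell of the large and 3 rose and 7 fell of the small. No difference between these groups of genes was tested.

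**Figure D3:**
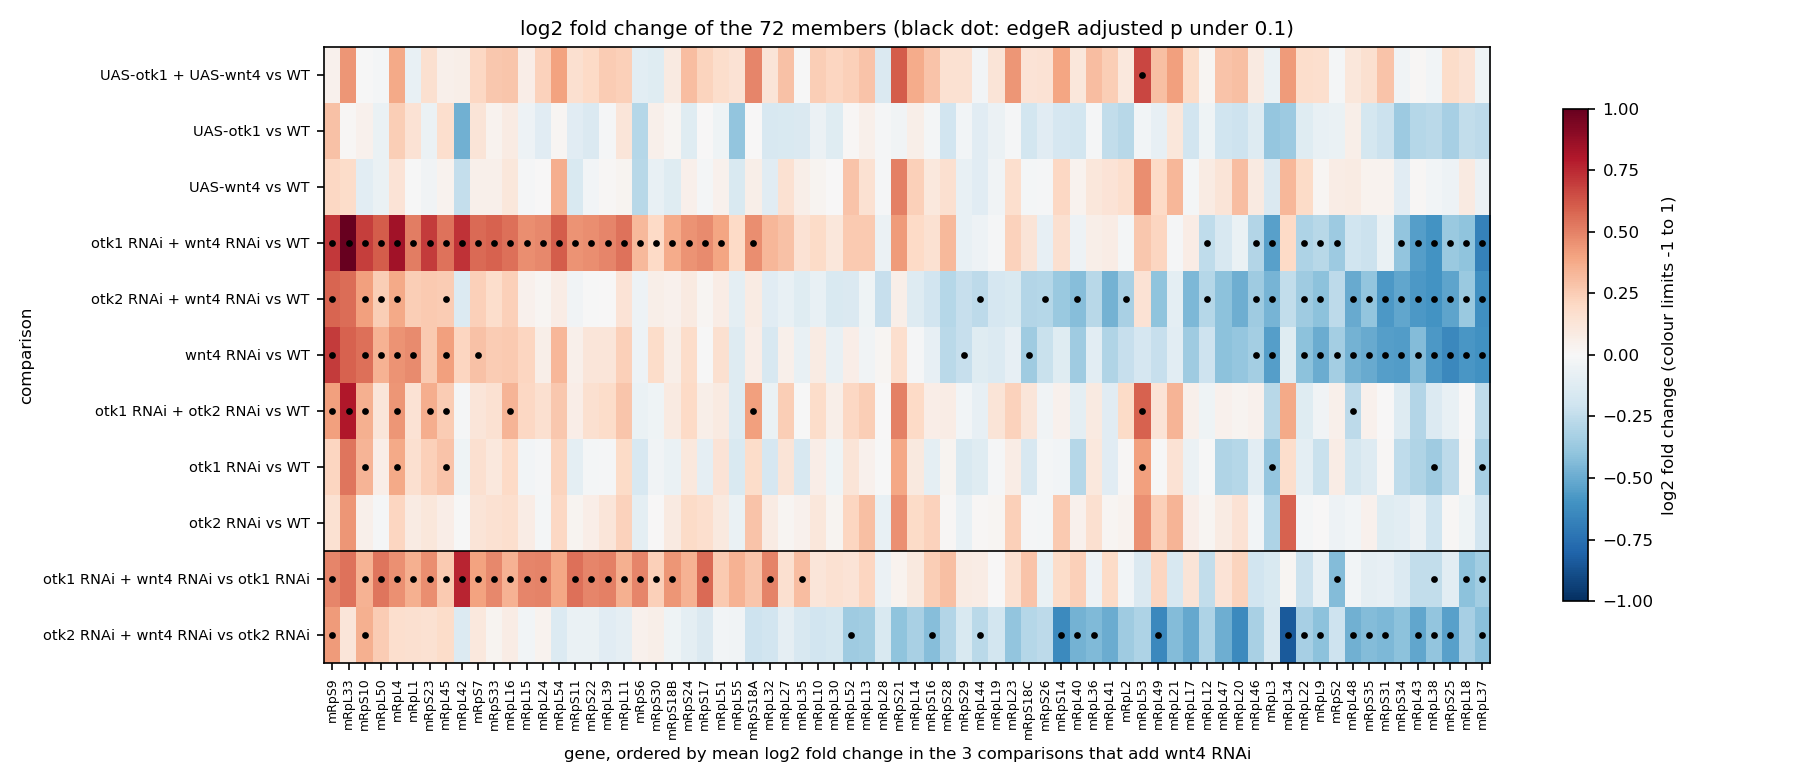
log2 fold change of the 72 members in each comparison, in colour, with a black dot where edgeR's adjusted p was under 0.1, and genes ordered by their mean in the comparisons that add wnt4 RNAi. The wnt4 RNAi rows have their rises at the left and falls at the right, with 7 and 16 dots against WT for wnt4 RNAi alone, and the overexpression rows have 1 dot in all.

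In the libraries labelled otk2 RNAi + wnt4 RNAi the split against WT was much the same in number, with 5 higher and 18 lower (54.7% of all genes tested were called, 27.7% higher and 27% lower) and a median of -0.14, against -0.03 over all genes. mRpL37 had 32.4 and 34.2 CPM there, against 56.7 and 45.1 CPM in WT (log2 fold change -0.61 ± 0.12), and mRpL38 had 29.05 and 31.5 CPM, against 48.4 and 43.1 CPM in WT (-0.59 ± 0.10). mRpL43, a mitochondrial protein of the large subunit, had 18.9 and 20.1 CPM, against 32.9 and 25.3 CPM in WT (-0.58 ± 0.15). These 3 genes were lower in both libraries than in either WT library.

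The rises in that group were headed by mRpS9, at 100.5 and 103.5 CPM, against 62.3 and 74.3 CPM in WT (log2 fold change 0.58 ± 0.12). mRpS10 followed with 63.7 and 67.3 CPM, against 46.7 and 51.9 CPM in WT (0.41 ± 0.10), and mRpL4 with 56.6 and 54.1 CPM, against 44.7 and 40.4 CPM in WT (0.38 ± 0.13). The other rises were mRpL45 (0.25) and mRpL50 (0.25), and the other falls ran from -0.57 in mRpS31 to -0.26 in mRpL44. Of the 29 members without a bacterial number, 2 rose and 12 fell. The count of calls dropped to 7 without WT replicate 1, to 9 without replicate 1 of otk2 RNAi + wnt4 RNAi and to 0 when the stage score was added to the model.

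Set against WT, the libraries labelled otk1 RNAi + wnt4 RNAi had 26 members higher and 12 lower (62.2% of all genes tested, 30.9% higher and 31.4% lower), with a median of 0.20, against -0.08 over all genes. Once the trend of each library with gene length was removed, 15 were higher and 23 lower and the median was -0.07, so this balance depends on that setting. Without replicate 2 of the group, 14 were higher and 3 lower. When the stage score was added to the model, 22 were higher and 2 lower. Fold changes of the members were related to effective length with a Spearman rho of -0.24 (n = 72 genes, which are not replicates).

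Of the 3 largest rises, those of mRpL33 and mRpL42 were in short genes. mRpL33, a small zinc-binding protein in many bacteria, had 17.8 and 25.9 CPM in otk1 RNAi + wnt4 RNAi, against 12.5 and 8.07 CPM in WT (log2 fold change 1.09 ± 0.31). mRpL42 had 43.4 and 60.5 CPM, against 36.7 and 26.3 CPM in WT (0.72 ± 0.24). mRpL4, of longer effective length, had 70.2 and 82.1 CPM, against 44.7 and 40.4 CPM in WT (0.84 ± 0.14). For mRpL33 and mRpL42 the gap between the 2 libraries of a group was wide beside the difference between groups.

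The largest falls were again those of mRpL37, mRpL38 and mRpL43. mRpL37 had 33.5 and 30.1 CPM, against 56.7 and 45.1 CPM in WT (log2 fold change -0.68 ± 0.12), mRpL38 31.2 and 29.3 CPM, against 48.4 and 43.1 CPM in WT (-0.60 ± 0.10), and mRpL43 20.8 and 18.9 CPM, against 32.9 and 25.3 CPM in WT (-0.55 ± 0.15). Each was lower in both libraries than in either WT library. The other falls were those of mRpL3 (-0.54), mRpL18 (-0.40), mRpS34 (-0.39), mRpS25 (-0.37), mRpS2 (-0.36), mRpL22 (-0.31), mRpL46 (-0.30), mRpL9 (-0.28) and mRpL12 (-0.25). Cytosolic ribosomal protein genes rose in the same comparison, 63 of 86 higher and 1 lower (74.4%, beside 62.2% of all genes tested). Their part in the members' result was not tested.

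Without wnt4 RNAi, changes were fewer. Against WT, otk1 RNAi had 4 members higher and 3 lower (45.5% of all genes tested were called, 21% higher and 24.5% lower), with a median of -0.01, against 0.00 over all genes. The count for otk1 RNAi + otk2 RNAi was 9 higher and 1 lower (46.8% of all genes tested, 22.5% higher and 24.4% lower), with a median of 0.08, against 0.02. All comparisons with WT share its 2 libraries.

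With otk1 RNAi, mRpL3, whose bacterial relative sits near the peptidyl transferase centre, had 40.1 and 44.5 CPM, against 61.0 and 49.9 CPM in WT (log2 fold change -0.39 ± 0.15). mRpL38 fell by 0.35 ± 0.10 and mRpL37 by 0.33 ± 0.12 on the log2 scale. mRpS10 had 61.6 and 63.3 CPM, against 46.7 and 51.9 CPM in WT (0.34 ± 0.10). mRpL4 (0.38 ± 0.13) and mRpL53 (0.41 ± 0.18, uncertain for its overlap) were higher too.

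The otk1 RNAi count rested on single libraries. It was 0 without WT replicate 1, 13 without WT replicate 2, 2 without otk1 RNAi replicate 1 and 1 without its replicate 2. With the stage score in the model it was 0, and mRpL3 then had a log2 fold change of 0.14.

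With otk1 RNAi + otk2 RNAi, mRpL33 had 15.7 and 20.02 CPM, against 12.5 and 8.07 CPM in WT (log2 fold change 0.80 ± 0.31). mRpL53 was higher by 0.59 ± 0.18 and mRpL4 by 0.44 ± 0.13. The only fall was mRpL48, a mitochondrial protein of the large subunit, at 22.3 and 21.2 CPM, against 26.9 and 25.1 CPM in WT (-0.26 ± 0.12). The count was 4 without WT replicate 1, 3 without replicate 2 of the group and 0 with the stage score in the model.

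Adding wnt4 RNAi to another RNAi gives comparisons that do not use WT. Set against otk1 RNAi, the libraries labelled otk1 RNAi + wnt4 RNAi had 23 members higher and 4 lower (31.2% of all genes tested, 19.5% higher and 11.7% lower), with a median of 0.20, against 0.06 over all genes. With the length trend removed the counts were 5 higher and 16 lower and the median -0.08. Set against otk2 RNAi, the libraries labelled otk2 RNAi + wnt4 RNAi had 2 higher and 17 lower (20.8% of all genes tested, 14.1% higher and 6.75% lower), with a median of -0.20, against -0.02 over all genes. Wnt4 itself had 76.6 and 89.2 CPM in otk1 RNAi + wnt4 RNAi, against 90.1 and 89.4 CPM in otk1 RNAi, and 74.9 and 82.9 CPM in otk2 RNAi + wnt4 RNAi, against 84.5 and 62.9 CPM in otk2 RNAi.

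Against otk1 RNAi the largest rises were those of mRpL42 (0.76 ± 0.24), mRpS17 (0.56 ± 0.15), mRpS11 (0.55 ± 0.20) and mRpL50 (0.54 ± 0.11), and beside mRpL37 and mRpL38 the falls were mRpS2 (-0.43 ± 0.16) and mRpL18 (-0.41 ± 0.13). Against otk2 RNAi only mRpS9 and mRpS10 rose. The largest falls there were mRpL34 (-0.84 ± 0.29), mRpL49 (-0.64 ± 0.23), mRpS14 (-0.63 ± 0.22), mRpS25 (-0.54 ± 0.15) and mRpL43 (-0.52 ± 0.15). mRpL34 and mRpL42 are among the shortest members. mRpS14 shares 35.8% of its exonic bases with CG32533 and Naa15-16. Against otk2 RNAi, CG32533 rose by 0.44 ± 0.15 (edgeR adjusted p = 0.0627) and Naa15-16 changed by 0.02 ± 0.12. Their part in the fall of mRpS14 was not tested.

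Both counts rest on single libraries. The count against otk1 RNAi was 3 without otk1 RNAi replicate 1, 9 without its replicate 2 and 4 without replicate 2 of otk1 RNAi + wnt4 RNAi, all of them higher. The count against otk2 RNAi was 5 without otk2 RNAi replicate 1, 4 without its replicate 2, 0 without replicate 1 of otk2 RNAi + wnt4 RNAi and 5 without its replicate 2. Leaving out 1 library leaves 1 in that group, which the fit takes to vary like the other groups.

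The difference between these effects was wnt4 RNAi added to otk1 RNAi minus wnt4 RNAi added to otk2 RNAi. It was above 0 in 69 of 72 members and in 6098 of the 11154 genes tested. Its median was 0.39 over the members, against 0.06 over all genes. With edgeR 0 of 72 members passed (0.0359% of all genes tested were called positive and 0.0538% negative), and 20 members, all positive, had an unadjusted p under 0.05 (10.1% of all genes tested were positive at that level). DESeq2 called 5 of 72 members, which were mRpL13, mRpL48, mRpS16, mRpS17 and mRpS18B, all positive, beside 6.21% of all genes tested (2.99% positive). For mRpS16, the relative of a bacterial small subunit protein, the difference was 0.67 ± 0.18 (edgeR adjusted p = 0.14). Both the comparison and these genes were chosen after the values were seen. With the trend of gene length removed edgeR again called 0 of 72.

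Of the remaining direct comparisons, libraries labelled wnt4 RNAi against otk1 RNAi had 1 member higher (mRpS9) and 3 lower (mRpL18, mRpL53 and mRpS31), where 9.64% of all genes tested were called (8% higher and 1.64% lower). That count was 1 without either wnt4 RNAi library and 0 without either otk1 RNAi library. In 6 further comparisons edgeR called 0 members. They were UAS-otk1 + UAS-wnt4 against UAS-wnt4 (background 0.215%) and against UAS-otk1 (0.717%), otk1 RNAi + wnt4 RNAi against wnt4 RNAi (0.646%), otk2 RNAi + wnt4 RNAi against wnt4 RNAi (0.179%), and otk1 RNAi + otk2 RNAi against otk2 RNAi (8.68%) and against otk1 RNAi (0.233%). At an edgeR unadjusted p under 0.05 the members numbered 1, 23, 18, 1, 2 and 1 in this order. The shares of all genes tested were 6.69, 12.9, 15.4, 2.3, 19.9 and 4.33%. The 23 were 22 higher and 1 lower, and the 18 were all higher. For wnt4 RNAi against WT, 21 members were under that level, 7 higher and 14 lower, with the share of all genes not given. In the 6 comparisons DESeq2 called 0, 1, 1, 0, 1 and 0 members, beside 0.574, 1.64, 3.19, 0.305, 12.6 and 0.583% of all genes tested.

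The order of the members was set side by side in comparisons without common libraries. The comparisons wnt4 RNAi with WT, otk1 RNAi + wnt4 RNAi with otk1 RNAi, and otk2 RNAi + wnt4 RNAi with otk2 RNAi share no library. Over the 72 members, log2 fold changes had a Pearson r of 0.72 for wnt4 RNAi with WT and the otk1 RNAi pair, 0.77 for wnt4 RNAi with WT and the otk2 RNAi pair and 0.58 for the otk1 RNAi and otk2 RNAi pairs. Over all genes tested the values were 0.15, 0.52 and 0.17. Spearman's rho was 0.73, 0.78 and 0.66 over the members and 0.29, 0.73 and 0.27 over all genes, so that by rank the second pair of comparisons was close to its value over all genes. These are correlations across genes, which are not independent, and are descriptions only. All genes tested include genes with lower counts than any member. Values for genes in the members' range of counts are not given.

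The direction of the family in the otk1 RNAi pair depended on the scaling. Its median was above 0 in CPM. With the length trend removed, more members were called lower than higher in all 3 comparisons. The counts were 9 higher and 24 lower for wnt4 RNAi with WT. They were 5 and 16 for the otk1 RNAi pair and 3 and 16 for the otk2 RNAi pair. Shares of all genes called higher or lower in that fit are not given, so these counts cannot be read as particular to the members. Summed TPM of the members was 4974 and 4758 in otk1 RNAi + wnt4 RNAi, against 5327 and 5476 in otk1 RNAi, and 4787 and 4744 in otk2 RNAi + wnt4 RNAi, against 5516 and 5557 in otk2 RNAi.

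Pearson correlations were as high over the 29 members that overlap no other gene (0.71, 0.76 and 0.56). With the length trend removed they were 0.71, 0.83 and 0.69, and with the stage score in the model 0.59, 0.55 and 0.68. Part of this order also separated libraries of one group. The difference of WT replicate 2 minus replicate 1, whose stage scores were -1.05 and 0.17, had an r of 0.65 with otk2 RNAi + wnt4 RNAi against otk2 RNAi and of 0.15 with otk1 RNAi + wnt4 RNAi against otk1 RNAi.

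**Figure D4:**
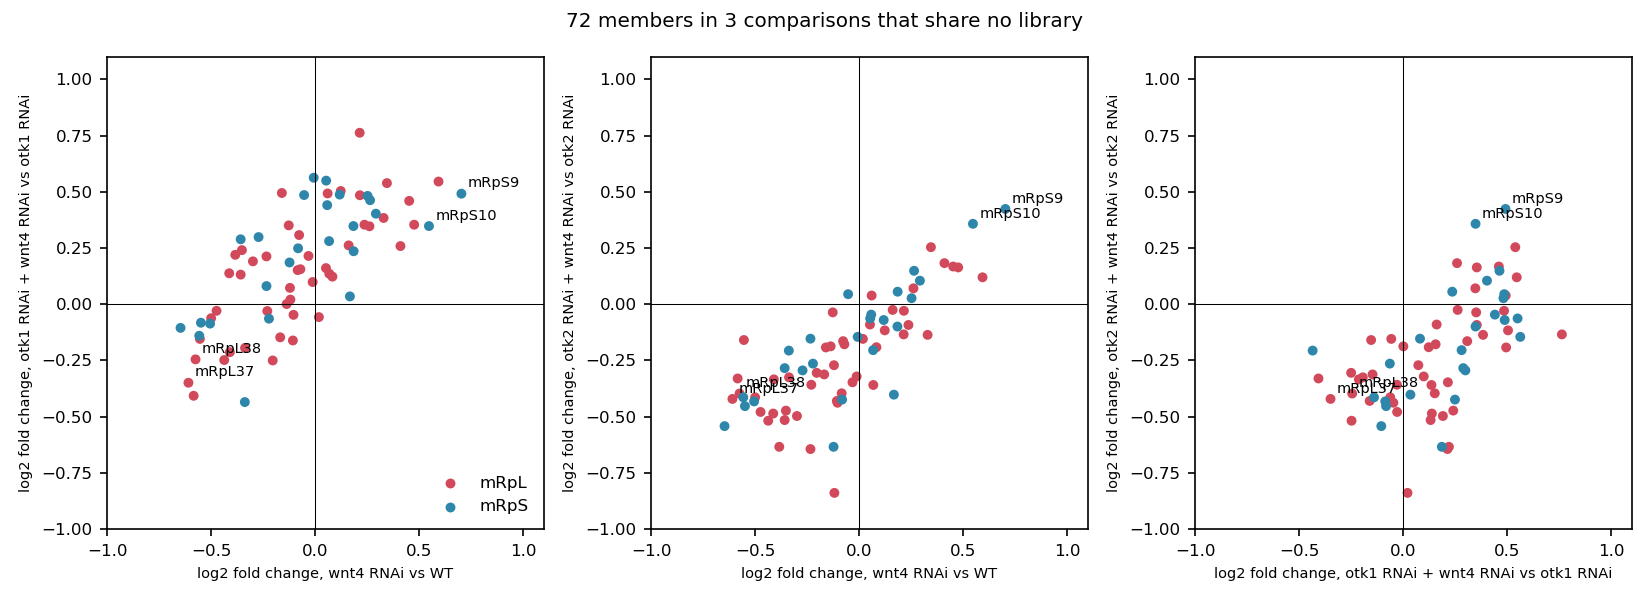
log2 fold changes of the 72 members in 3 comparisons that share no library, set against each other in pairs, with large subunit genes in red and small subunit genes in blue. The points rise together in each panel (r of 0.72, 0.77 and 0.58), while in CPM 51 of the 72 lie above 0 for otk1 RNAi + wnt4 RNAi against otk1 RNAi and 58 lie below 0 for otk2 RNAi + wnt4 RNAi against otk2 RNAi.

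In all 3 comparisons, 13 of 72 members were above 0 and 20 below 0, beside 28.3% and 24.1% of all genes tested. In each of them mRpS9 and mRpS10 were called higher, as were 10.1% of all genes tested, and mRpL37 and mRpL38 lower, as were 0.377%. These 4 were singled out after their values were seen. In the BDGP6 annotation mRpS9 (FBgn0037529) lies on 3R at 7889277 to 7902667 (minus strand), mRpS10 (FBgn0038307) on 3R at 15229665 to 15230516 (plus), mRpL37 (FBgn0261380) on 3R at 10782563 to 10784092 (minus) and mRpL38 (FBgn0030552) on X at 14226289 to 14227949 (plus), so that they are not neighbours.

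mRpS9 had 112.0 and 111.1 CPM in otk1 RNAi + wnt4 RNAi, against 76.5 and 82.2 CPM in otk1 RNAi, a log2 fold change of 0.49 ± 0.12 (edgeR adjusted p = 0.00931). It had 100.5 and 103.5 CPM in otk2 RNAi + wnt4 RNAi, against 80.0 and 72.2 CPM in otk2 RNAi (0.42 ± 0.12, edgeR adjusted p = 0.0305). In TPM the libraries of mRpS9 overlapped in the first comparison, at 91.9 and 74.9, against 73.8 and 79.4 in otk1 RNAi. They stayed apart in the second, at 93.0 and 94.7, against 80.5 and 61.8 in otk2 RNAi. ArgRS-m, the mitochondrial arginyl-tRNA synthetase gene that overlaps it on the other strand, changed by -0.19 ± 0.14 and -0.23 ± 0.14 in these comparisons and by 0.01 ± 0.14 in wnt4 RNAi against WT, and passed in none.

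mRpS10 had 83.6 and 75.3 CPM in otk1 RNAi + wnt4 RNAi, against 61.6 and 63.3 CPM in otk1 RNAi (log2 fold change 0.35 ± 0.10, edgeR adjusted p = 0.0249). It had 63.7 and 67.3 CPM in otk2 RNAi + wnt4 RNAi, against 51.9 and 50.4 CPM in otk2 RNAi (0.36 ± 0.10, edgeR adjusted p = 0.0354). With the length trend removed the first of these was 0.09 (edgeR adjusted p = 0.773). The libraries of the groups did not overlap in CPM in either comparison. In TPM they overlapped in the first, at 149.7 and 111.1, against 129.9 and 133.7 in otk1 RNAi, and not in the second.

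mRpL37 had 33.5 and 30.1 CPM in otk1 RNAi + wnt4 RNAi, against 41.9 and 39.1 CPM in otk1 RNAi (log2 fold change -0.35 ± 0.12, edgeR adjusted p = 0.0455). It had 32.4 and 34.2 CPM in otk2 RNAi + wnt4 RNAi, against 45.4 and 43.7 CPM in otk2 RNAi (-0.42 ± 0.12, edgeR adjusted p = 0.0326). mRpL38, whose human relative is in the central protuberance, had 31.2 and 29.3 CPM, against 35.1 and 36.5 CPM in otk1 RNAi (-0.24 ± 0.10, edgeR adjusted p = 0.099), and 29.05 and 31.5 CPM, against 40.5 and 39.1 CPM in otk2 RNAi (-0.40 ± 0.10, edgeR adjusted p = 0.0233). With the length trend removed both genes stayed past the threshold in both comparisons, with edgeR adjusted p of 0.00959 to 0.0247. In the direct comparisons, leaving out single libraries took several of these calls past 0.1, with all directions kept.

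**Figure D5:**
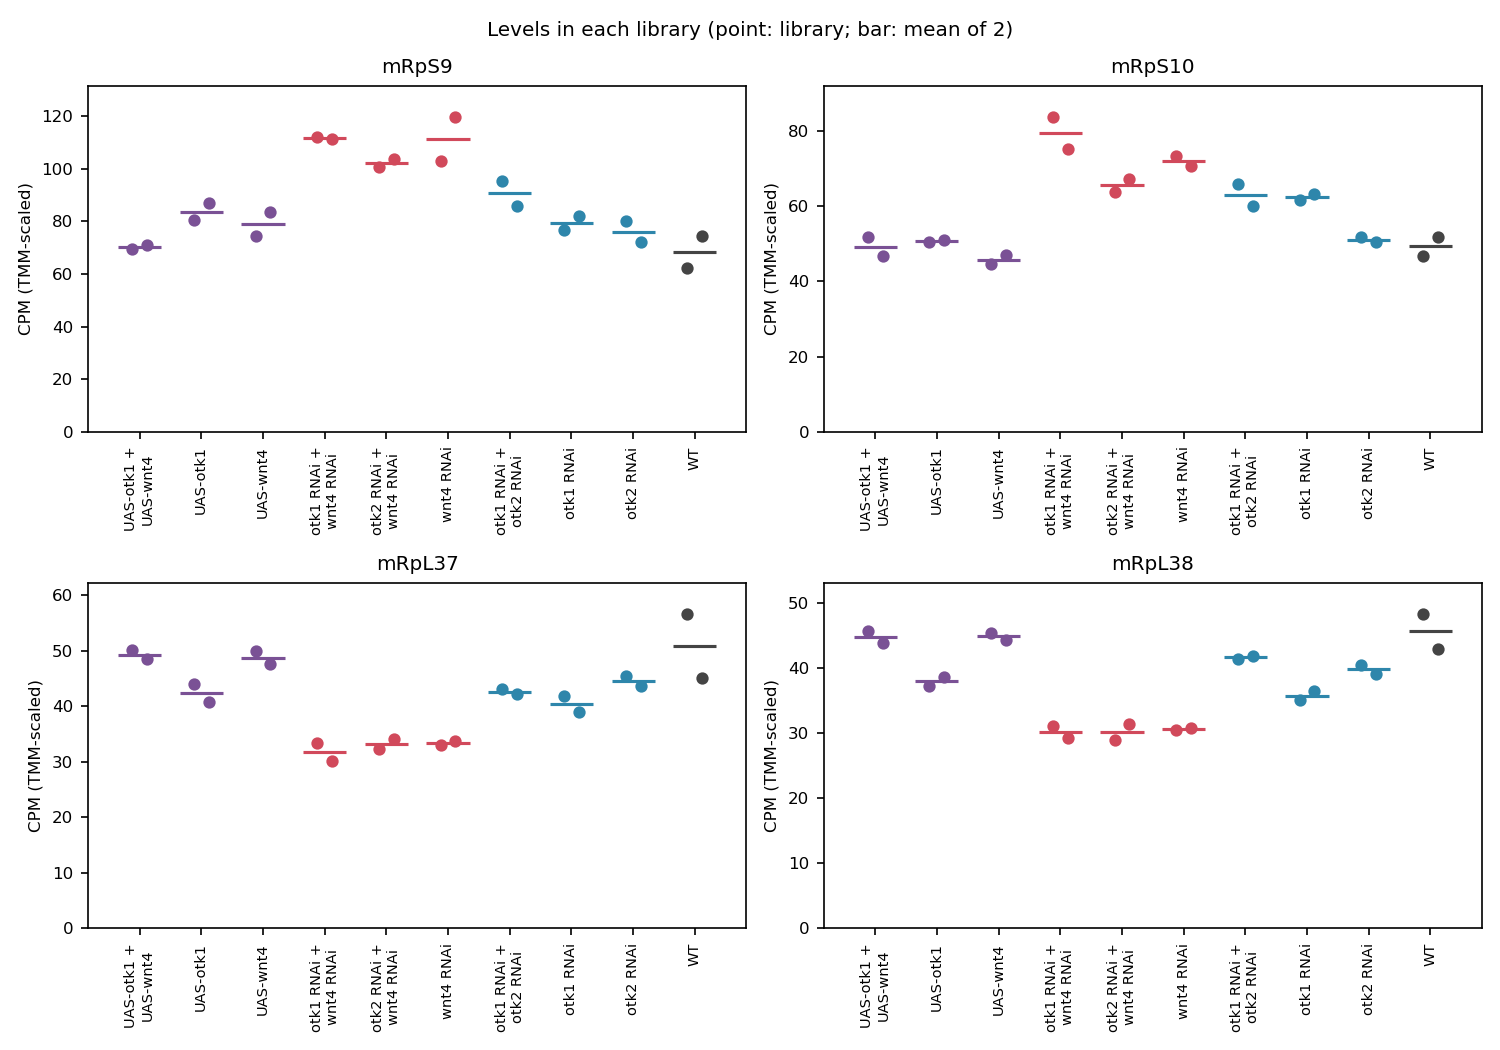
CPM of mRpS9, mRpS10, mRpL37 and mRpL38 in every library, with a bar for the mean of 2. The 6 libraries with wnt4 RNAi hold mRpS9 at 100.5 to 119.4 CPM, above the other 14 libraries, and mRpL37 at 30.1 to 34.2 CPM and mRpL38 at 29.05 to 31.5 CPM, below them. In TPM, not drawn here, mRpS9 overlapped between the 6 and the 14.

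Across all 20 libraries, 6 members were lower in every one of the 6 libraries with a wnt4 RNAi transgene than in any of the other 14, a pattern found in 0.834% of all genes tested. In CPM they were mRpL9, mRpL18, mRpL22, mRpL37, mRpL38 and mRpL46, all of the large subunit. mRpL37 was at 30.1 to 34.2 CPM in the 6 libraries and at 39.1 to 56.7 CPM in the 14, and mRpL22, whose bacterial relative lines the exit tunnel, at 32.6 to 37.3 CPM and at 41.0 to 55.1 CPM. mRpL9 was at 27.4 to 32.9 CPM in the 6 and at 33.5 to 45.3 CPM in the 14, and mRpL46 at 20.4 to 21.7 CPM and at 23.4 to 30.7 CPM. For mRpL18 the gap was narrow, with 13.4 to 17.7 CPM in the 6 and 17.9 to 25.9 CPM in the 14. In CPM, only mRpS9 and mRpL50 were higher in all 6 than in all 14, a pattern of 13% of all genes tested. mRpS9 was at 100.5 to 119.4 CPM in the 6 and at 62.3 to 95.3 CPM in the 14, and mRpL50 at 32.7 to 43.9 CPM and at 25.3 to 30.9 CPM. In TPM both overlapped, with mRpS9 at 74.9 to 109.1 in the 6 and 61.8 to 93.9 in the 14. mRpL50 was at 62.9 to 70.2 TPM in the 6 and at 48.5 to 63.2 TPM in the 14. The 6 members that were lower stayed apart in TPM too. In TPM the pattern was not confined to the large subunit. mRpS25 was at 38.6 to 47.5 TPM in the 6 and at 58.0 to 82.2 TPM in the 14. mRpS35 was at 30.9 to 38.6 TPM in the 6 and at 46.0 to 60.9 TPM in the 14. The share of all genes tested with this pattern in TPM is not given. This grouping of libraries was looked at after the values were seen and was not tested. Stage scores were -2.53 to -1.78 in the 6 libraries and -3.38 to 0.17 in the 14. By this score the 6 lay inside the range of the others. Other measures set the same libraries apart. Summed CPM of the egg genes in the score was 4061 to 5186 in the 6 and 1591 to 3365 in the 14. As mean log2 CPM, the form used in the score, those genes overlapped. Scaling factors were 0.825 to 0.946 in the 6 and 1.004 to 1.081 in the 14. The part of either measure in these patterns was not tested.

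Other genes of mitochondrial gene expression numbered 39. Against WT, the libraries labelled wnt4 RNAi had 12 higher and 10 lower (56.4% of the list, beside 59.2% of all genes tested), otk1 RNAi + wnt4 RNAi 12 and 13 (64.1%, beside 62.2%), and otk2 RNAi + wnt4 RNAi 12 and 9 (53.8%, beside 54.7%). PolG2 and GatC had equal values throughout, so their falls count as 1 measurement. The rises included mtTFB1 (log2 fold change 1.40 ± 0.13 in the libraries labelled wnt4 RNAi), which methylates mitochondrial rRNA, TFAM (1.17 ± 0.16), which packages mitochondrial DNA, and mIF3 (0.70 ± 0.15), an initiation factor. bsf, an RNA-binding protein of mitochondrial messages, fell by 0.66 ± 0.18 and mEFTu1, an elongation factor, by 0.43 ± 0.12. mtTFB1 and TFAM also passed against otk1 RNAi (0.86 ± 0.13 and 0.69 ± 0.16) and against otk2 RNAi (1.13 ± 0.13 and 0.76 ± 0.16). tko and bonsai, small subunit proteins with other symbols, had log2 fold changes of 0.71 ± 0.27 and -0.36 ± 0.14 in otk1 RNAi + wnt4 RNAi against WT, both past the threshold, and neither passed in the other wnt4 RNAi groups.

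Against WT, the 67 nuclear genes of oxidative phosphorylation had 11 higher and 13 lower (35.8%) in the libraries labelled wnt4 RNAi. They had 30 and 9 (58.2%) in otk1 RNAi + wnt4 RNAi and 7 and 19 (38.8%) in otk2 RNAi + wnt4 RNAi. The cytosolic ribosomal protein genes had 15 and 1 (18.6%), 63 and 1 (74.4%), and 6 and 2 (9.3%) of 86. The mitochondrial ribosomal protein genes had 7 and 16 (31.9%), 26 and 12 (52.8%), and 5 and 18 (31.9%) of 72. Over all genes tested the shares were 59.2, 62.2 and 54.7%. Among the lists of this paragraph, only the cytosolic one, in otk1 RNAi + wnt4 RNAi, lay above the share of all genes tested. The other genes of mitochondrial gene expression were at 64.1% in that comparison, beside 62.2%. All of these counts use the same WT libraries.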

How the data were processed

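Total RNA of dechorionated embryos was sequenced as paired reads of 151 bases in 20 libraries, 2 in each of 10 groups. Per the labels and the study's methods, the authors aligned reads with STAR 2.7.1a to dm6 and estimated expression with RSEM 1.3.1. The deposited expected counts are RSEM's estimated reads per gene, and 11.6% of these values were not whole. The deposited TPM values and effective lengths (other values, in bases) were computed by the authors in the same step. FPKM was not used. Gene symbols, types and overlaps came from the reference annotation by gene ID.

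Expected counts were rounded, genes with a mean under 10 were dropped, and libraries were scaled by TMM. The 10 groups were fitted together with edgeR 4.0.16 (quasi-likelihood test, R 4.3.3), Benjamini-Hochberg adjusted p under 0.1 being called, in 9 comparisons with WT and 9 between other groups. SE is that of the log2 fold change. An exact permutation test of 2 against 2 libraries cannot go below p = 0.333. DESeq2 1.42.0, RLE scaling, no filter, an adjusted p under 0.05, a replicate block, the stage score as covariate, correction of every library for gene length (a smoothed trend), only the libraries compared, and leaving out each library were tried. Scripts were tested on simulated data. Plots were drawn with matplotlib 3.10.9 in Python 3.11.15, from tables made with pandas 2.3.3.

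Any member could be named. Per-library values were given for up to 3 rises and 3 falls per comparison with WT whose libraries did not overlap, and for the extremes of level and spread. Members and lists were chosen with earlier results of these data known. The planned search of promoter sequences was not run, and no sequences are shown.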

Additional observations from a re-analysis of the deposited data

Results flagged for a closer look

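Where wnt4 RNAi was added, the summed CPM of the 72 members was higher on otk1 RNAi and lower on otk2 RNAi, a contrast seen in CPM and not in TPM or in shares of counts. Every library of otk1 RNAi + wnt4 RNAi was above both of otk1 RNAi, by 421.37 CPM on average, and every library of otk2 RNAi + wnt4 RNAi was below both of otk2 RNAi, a mean difference of -298.57 CPM. For the mRpL genes alone the mean differences were 205.15 and -247.59 CPM. Summed TPM was lower in both, at 4974 and 4758 in otk1 RNAi + wnt4 RNAi, against 5327 and 5476 in otk1 RNAi, and at 4787 and 4744 in otk2 RNAi + wnt4 RNAi, against 5516 and 5557 in otk2 RNAi. The members' share of the tested counts was 0.272 and 0.272% in otk1 RNAi + wnt4 RNAi, against 0.273 and 0.281% in otk1 RNAi, and with the length trend removed the median log2 fold change of that comparison was -0.077. The difference of these sums was not tested. The test per gene called 0 of 72 members with edgeR and 5 with DESeq2, which called 6.21% of all genes tested.

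In CPM, every library of mRpL44 moved one way in one comparison and the opposite way in another. Its mean difference was 2.33 CPM between otk1 RNAi + wnt4 RNAi and otk1 RNAi, -8.42 CPM between otk2 RNAi + wnt4 RNAi and otk2 RNAi and -3.92 CPM between wnt4 RNAi and WT. mRpS29 did likewise, with mean differences of 2.23 CPM, -4.09 CPM and -6.43 CPM in the same 3 comparisons. For both genes the first and the second of these values were compared in the test per gene and did not pass, and the comparison with wnt4 RNAi against WT was not tested. In TPM neither gene was higher in the first comparison. mRpL44 was at 44.8 and 39.2 TPM in otk1 RNAi + wnt4 RNAi, against 52.6 and 50.9 TPM in otk1 RNAi, and mRpS29 at 29.1 and 24.4 TPM, against 31.2 and 34.2 TPM in otk1 RNAi.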

How the results depend on the processing

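Of the counts of called members recomputed under an alternative, 190 stayed within 1.5 times and 64 did not. With an adjusted p under 0.05 the counts were 0 (UAS-otk1 + UAS-wnt4), 4 (otk1 RNAi + otk2 RNAi), 14 (otk1 RNAi + wnt4 RNAi against otk1 RNAi) and 10 (otk2 RNAi + wnt4 RNAi against otk2 RNAi). Among members that overlap no other gene they were 0 (UAS-otk1 + UAS-wnt4), 5 (otk1 RNAi) and 0 (wnt4 RNAi against otk1 RNAi). Without a filter on low counts they were 15 (otk2 RNAi + wnt4 RNAi), 6 (otk1 RNAi + otk2 RNAi) and 12 (otk2 RNAi + wnt4 RNAi against otk2 RNAi). With the stage score in the model edgeR called 0 against WT in UAS-otk1 + UAS-wnt4, in wnt4 RNAi, in otk1 RNAi, in otk2 RNAi + wnt4 RNAi and in otk1 RNAi + otk2 RNAi, 24 in otk1 RNAi + wnt4 RNAi, 8 in otk2 RNAi + wnt4 RNAi against otk2 RNAi and 16 in wnt4 RNAi against otk1 RNAi. mRpL3 in otk1 RNAi then changed sign (0.139). The WT scores lay above those of every RNAi library, so stage cannot be separated from RNAi in the comparisons with WT. Shares of all genes called with the stage score in the model or with the length trend removed are not given.

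With the length trend removed the counts were 12 (otk1 RNAi), 1 (otk1 RNAi + otk2 RNAi against otk2 RNAi) and 7 (wnt4 RNAi against otk1 RNAi), and the medians of otk1 RNAi + wnt4 RNAi changed sign, to -0.069 against WT and -0.077 against otk1 RNAi. The split was then 9 higher and 24 lower in wnt4 RNAi, 6 and 24 in otk2 RNAi + wnt4 RNAi, and 9 and 3 in otk1 RNAi + otk2 RNAi. Fitting only the libraries compared gave 0 (UAS-otk1 + UAS-wnt4), 11 (wnt4 RNAi), 0 (otk1 RNAi), 14 (otk1 RNAi + wnt4 RNAi), 6 (otk2 RNAi + wnt4 RNAi), 0 (otk1 RNAi + otk2 RNAi), 11 (UAS-otk1 + UAS-wnt4 against UAS-otk1), 14 (otk1 RNAi + wnt4 RNAi against otk1 RNAi) and 10 (wnt4 RNAi against otk1 RNAi). DESeq2 gave 1 in UAS-otk1, in UAS-otk1 + UAS-wnt4 against UAS-otk1, in otk1 RNAi + wnt4 RNAi against wnt4 RNAi and in otk1 RNAi + otk2 RNAi against otk2 RNAi, 9 in wnt4 RNAi against otk1 RNAi and 5 for the difference between the effects of wnt4 RNAi.

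Leaving out each library gave 14 to 28 calls in wnt4 RNAi, 0 to 13 in otk1 RNAi, 17 to 38 in otk1 RNAi + wnt4 RNAi, 7 to 32 in otk2 RNAi + wnt4 RNAi, 3 to 9 in otk1 RNAi + otk2 RNAi, 0 to 11 in UAS-otk1, 0 to 2 in otk2 RNAi and 0 to 0 in UAS-otk1 + UAS-wnt4. It gave 3 to 26 for otk1 RNAi + wnt4 RNAi against otk1 RNAi, 0 to 5 for otk2 RNAi + wnt4 RNAi against otk2 RNAi, 0 to 1 for wnt4 RNAi against otk1 RNAi and 0 to 1 for the difference between the effects of wnt4 RNAi. The cause was not tested.

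With the replicate number as a block the counts were 23 (wnt4 RNAi), 8 (otk1 RNAi), 37 (otk1 RNAi + wnt4 RNAi), 24 (otk2 RNAi + wnt4 RNAi) and 12 (otk1 RNAi + otk2 RNAi) against WT, and 30 members differed across the 10 groups. Of 45 pairs of groups, 33 had same-numbered libraries that deviated together with r above 0. In 17 r was over 0.1 and in 5 it was under -0.1. Over all 45 pairs r ran from -0.23 to 0.63, with a median of 0.06. Whether the numbers pair some of the samples is not settled by these values. The member with the fewest reads averaged 479.95 counts per library.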
